A study of Danio rerio with 93 samples.

Results

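The genes described here are classical targets of the transcription factor p53 that act on the cell cycle, on cell death and on p53 itself. They were chosen by name, as mdm2, cdkn1a, ccng1, gadd45aa, pmaip1, phlda3 and sesn1, 7 names in all, with earlier results of these data known. Of these, 5 were found in the count table by symbol: mdm2 (ENSDARG00000033443), cdkn1a (ENSDARG00000076554), ccng1 (ENSDARG00000076667, listed as CCNG1), pmaip1 (ENSDARG00000089307) and phlda3 (ENSDARG00000037804, listed as PHLDA3). The names used here list 2 gene identifiers under GADD45A and do not say which is gadd45aa, so both are given, as the first GADD45A gene (ENSDARG00000043581) and the second GADD45A gene (ENSDARG00000104571). The gene sesn1 was not analysed here. The set is therefore 7 genes of the 19913 in the table, and all 7 passed the filter on low counts in the fit of each dye.

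The data are poly-A RNA-Seq libraries from 93 whole zebrafish (Danio rerio) embryos of the wild-type line labelled SPF 5-D, each taken at 48 h post fertilization (hpf). Dechorionated embryos had been exposed in individual wells to a dye of military smoke formulations. Solvent Violet 47 (SV47) was given at 40, 31.5, 23, 17.5 and 12 µM. Disperse Blue 14 (DB14) was given at 314, 261.5, 209, 171 and 133 µM. Solvent Yellow 33 (SY33) was given at 13.5, 12, 10.5, 9 and 7.5 µM. Disperse Red 9 (DR9) was given at 55, 45, 35, 25 and 10 µM. Solvent Red 169 (SR169) was given at 50, 35.6, 11.2, 5 and 1 µM. Each dose had 3 embryos, and each dye had its own vehicle control embryos in 0.64% DMSO, 4 for each of 4 dyes and 2 for SV47. The concentrations are nominal, and they differ between dyes, so levels of different dyes are given side by side and no test compares one dye with another. The labels name no plate, clutch or sequencing day, so such batches and the groups cannot be told apart, and every p-value measures the spread between the embryos sequenced.

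p53 is held at a low level in unstressed cells because Mdm2, the ubiquitin ligase encoded by one of its own target genes, marks it for destruction. When DNA is damaged or ribosomes, nutrients or oxygen fail, p53 is stabilised and switches on genes that stop the cell cycle, repair DNA or kill the cell, and the rise of mdm2 then limits the response. In zebrafish embryos a rise of mdm2, cdkn1a and ccng1 is a widely used sign of p53 activation, and it occurs with many kinds of injury. Here only RNA was measured, in whole embryos, so more cells with a transcript and more RNA per cell cannot be told apart.

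Total counts ranged from 9171259 to 48187940, with a median of 32290100, and 3 embryos were taken as standing apart after the data were seen. The first was replicate 3 of 12 µM SY33, which had the lowest total and the lowest correlation with the median control embryo, r = 0.758 across genes. Its heart muscle markers summed to 8.03 CPM (counts scaled to a common library size), against 61.8 to 171 in the other 92 embryos, and its skeletal muscle markers summed to 33513 CPM, against at most 16532. The others were replicates 1 and 2 of the SR169 control, with r = 0.941 and r = 0.906 (6th and 2nd lowest of the 93), in which the members themselves were also high, and the summed CPM of proliferation genes at 2591 and 3350, against 1472 to 2316 in the other 16 controls. The marker sets of skeletal muscle, heart, erythroid cells, lens, neurons, notochord, and yolk and liver were all detected in the other 90 embryos, the lowest sum being 23.2 CPM for neurons. Between this pair in r lay DB14 control replicate 2 (0.932), 40 µM SV47 replicate 3 (0.932) and 25 µM DR9 replicate 3 (0.934), which were kept; leaving out each of these took the calls described next from 16 to 14 for DB14, left 9 for SV47 and took 1 to 3 for DR9. Fold changes of the members and of the named genes of SR169 and SY33 are given with and without the 3 embryos.

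Transcripts of several p53 targets were called higher than in controls at 171, 261.5 and 314 µM DB14 and at 31.5 and 40 µM SV47. Without an embryo singled out after seeing the data, some were also called higher from 9 µM SY33 upward. A gene was called at a given dose when it differed from the control of the same dye by more than 1.5-fold with a Benjamini-Hochberg adjusted p below 0.05 over all genes tested (edgeR quasi-likelihood F test). Of the 175 tests of a member at a dose, 26 were called higher and 1 lower. DB14 gave 16 of its 35 tests, SV47 gave 9 of 35, DR9 gave 1 of 35, SY33 gave 0 of 35, and SR169 gave the call in the lower direction. For SY33, DESeq2 called 7 of the 35 tests, with the share of all genes called not given here. An unadjusted p below 0.05 was seen in 20 of the 35. In order of dose, 840, 1314, 1615, 3279 and 2175 of all 17577 genes had such an unadjusted p. Without replicate 3 of 12 µM, set aside after the data were seen, 19 of the 35 tests were called, all higher. The comparisons of 1 dye share their control embryos, so the calls at its doses are not independent of each other.

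For DB14 the members called higher numbered 0 of 7 at 133 µM, where 0.0559% of the 17887 genes tested were called higher, 5 of 7 at 171 µM (0.52%), 0 of 7 at 209 µM (0.0895%), 5 of 7 at 261.5 µM (0.777%) and 6 of 7 at 314 µM (7.66%). At 133 and 209 µM, 5 and 6 members had an unadjusted p below 0.05, beside 2402 and 1533 of the 17887 genes. The median log2 fold change of the 7 members was 0.71, 1.43, 1.19, 1.47 and 1.43 in order of dose, against medians over all genes between -0.03 and -0.01. Genes in which every exposed embryo lay above every control numbered 4, 6, 4, 6 and 6 of the 7, beside 5.53%, 5.67%, 2.68%, 7.66% and 11.3% of all genes tested. Leaving out 261.5 µM replicate 4 or replicate 1 took the 16 calls to 9 and 10, and fits of only the groups compared, each with 7 embryos, called 0 members at all 5 doses with medians between 0.71 and 1.46, and also called 0 of the 17404 to 17499 genes tested.

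For SV47 no member was called at 12, 17.5 or 23 µM, where 0% of the 17921 genes tested were called. At 31.5 µM 3 of 7 were called higher, beside 2.22% of all genes, and at 40 µM 6 of 7, beside 6.05%. The members' median log2 fold change was -0.06, 0.07, 0.33, 0.93 and 1.76 in order of dose. All 3 exposed embryos lay above both controls for 0, 3, 5, 7 and 7 of the 7 genes, but with 2 control embryos 6.16%, 20.5%, 21%, 24.2% and 22.6% of all genes did so. The 9 calls became 5 without control replicate 3 and 4 without control replicate 4, fits in which the remaining control is assumed to vary as the other groups do.

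**Figure D1:**
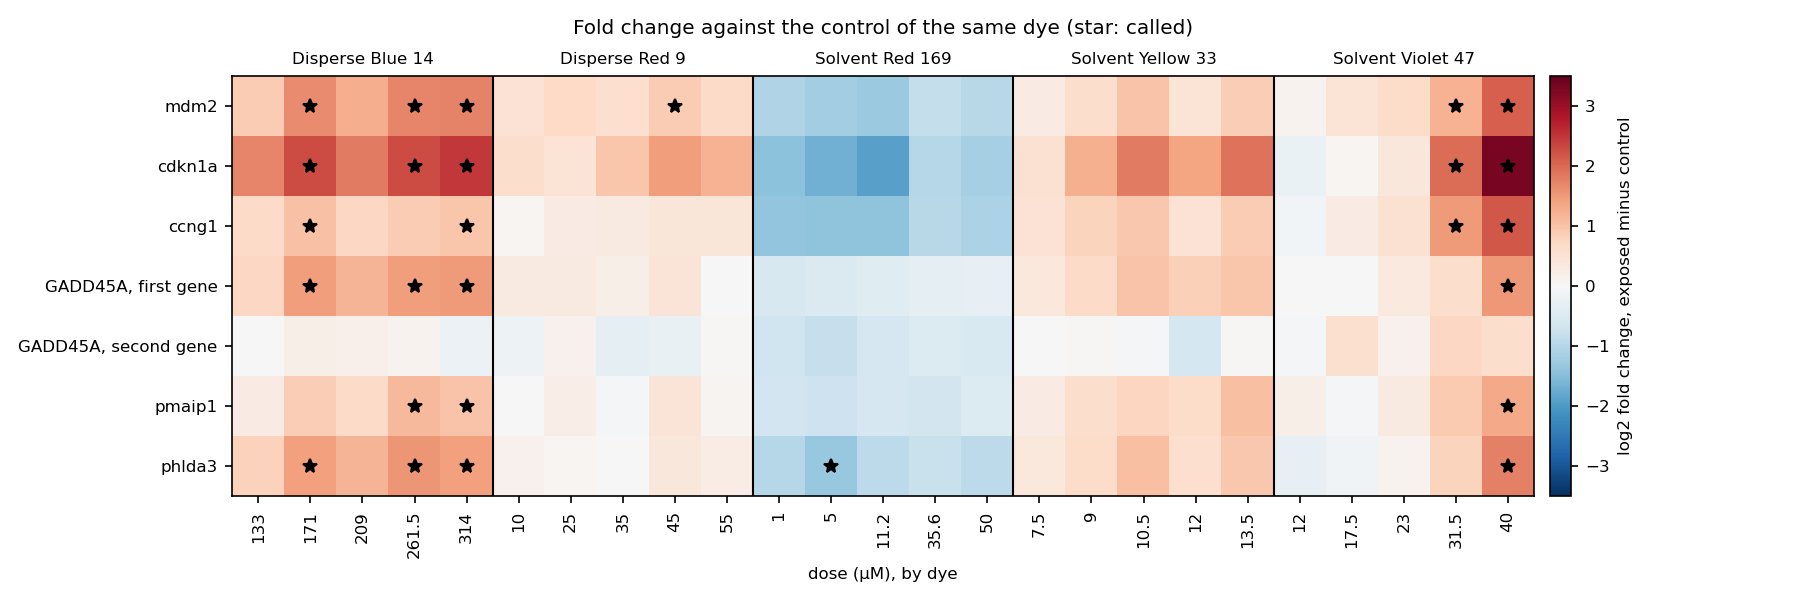
Log2 fold change of each gene (vertical) at each dose in µM (horizontal) against the control embryos of the same dye, with red for higher and blue for lower and a star for a called difference. The stars number 16 in DB14, 9 in SV47, 1 in DR9, 1 (lower) in SR169 and 0 in SY33, and the second GADD45A gene has none.

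The feedback regulator mdm2 was called higher at 6 of the 25 doses. In DB14 its level was 40.6, 51.1, 60.6 and 84.8 CPM in the 4 controls. It was 104, 112 and 113 CPM at 133 µM, 137, 163 and 256 CPM at 171 µM, 105, 113 and 204 CPM at 209 µM, 152, 201 and 212 CPM at 261.5 µM, and 118, 228 and 233 CPM at 314 µM. Every exposed embryo therefore lay above the highest control. Against control the log2 difference was 1.65 ± 0.29 (SE, adjusted p = 0.0135) at 171 µM, 1.70 ± 0.29 (adjusted p = 0.00978) at 261.5 µM and 1.74 ± 0.29 (adjusted p = 0.00574) at 314 µM. At 133 µM it was 0.90 ± 0.29 (adjusted p = 0.286) and at 209 µM 1.28 ± 0.29 (adjusted p = 0.101), neither of which was called. The call at 314 µM was kept whichever embryo of the compared groups was left out; that at 171 µM was lost without 171 µM replicate 1, 171 µM replicate 2 or control replicate 4 (1.35 to 1.73, adjusted p 0.0512 to 0.145), and that at 261.5 µM without 261.5 µM replicate 1 or 4 (1.62 to 1.66, adjusted p 0.0561 to 0.0658).

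In SV47 mdm2 was at 48.8 and 53.6 CPM in the controls. It was 41.9, 56.0 and 70.5 CPM at 12 µM, 68.9, 69.9 and 78.3 CPM at 17.5 µM, 76.7, 80.2 and 86.7 CPM at 23 µM, 98.7, 122 and 142 CPM at 31.5 µM, and 126, 227 and 319 CPM at 40 µM. The groups overlapped the controls only at 12 µM, and the spread between embryos was widest at 40 µM, where the lowest of the 3 lay within the range of 31.5 µM. Relative to the controls the log2 fold change was 1.21 ± 0.31 (SE, adjusted p = 0.0314) at 31.5 µM and 2.10 ± 0.32 (adjusted p = 0.000915) at 40 µM. The latter was kept in every fit that left out an embryo of the compared groups, while the former was lost in 4 of 5 (without 31.5 µM replicate 3 or 4, or control replicate 3 or 4), at 1.07 to 1.28 with an adjusted p of 0.0722 to 0.278.

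For DR9, mdm2 was called at 1 dose. Its controls had 42.5, 47.3, 55.6 and 62.3 CPM, and the exposed embryos 64.8 to 82.4 CPM at 10 µM, 70.3 to 98.2 CPM at 25 µM, 73.6 to 87.9 CPM at 35 µM, 84.3, 86.0 and 115 CPM at 45 µM and 77.9 to 86.7 CPM at 55 µM. All 15 exposed embryos lay above all 4 controls. The doses overlapped each other, except that every embryo of 45 µM lay above every embryo of 10 µM. The only member called for this dye was mdm2 at 45 µM, which was higher by 0.88 ± 0.16 log2 units (SE, adjusted p = 0.0214), beside 0.632% of the 17869 genes tested called higher. It was lost without control replicate 2, control replicate 3 or 45 µM replicate 2 (0.73 to 0.84, adjusted p 0.0566 to 0.155). At 10, 25, 35 and 55 µM no member was called higher, beside 0%, 0%, 0.0224% and 0.19% of all genes, and mdm2 stood at 0.52, 0.69, 0.60 and 0.67 on the log2 scale (adjusted p 0.0676 to 0.907). All 3 exposed embryos lay above all 4 controls for 1, 1, 2, 3 and 3 of the 7 genes in order of dose, beside 5.1%, 2.08%, 5.61%, 8.03% and 9.65% of all genes. Over the 7 members and 5 doses of this dye, DESeq2 called 6 of 35 tests, with the share of all genes called not given here. An unadjusted p below 0.05 was seen in 10 of the 35. In order of dose, 867, 1250, 1429, 2731 and 2483 of all 17869 genes had such an unadjusted p.

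**Figure D2:**
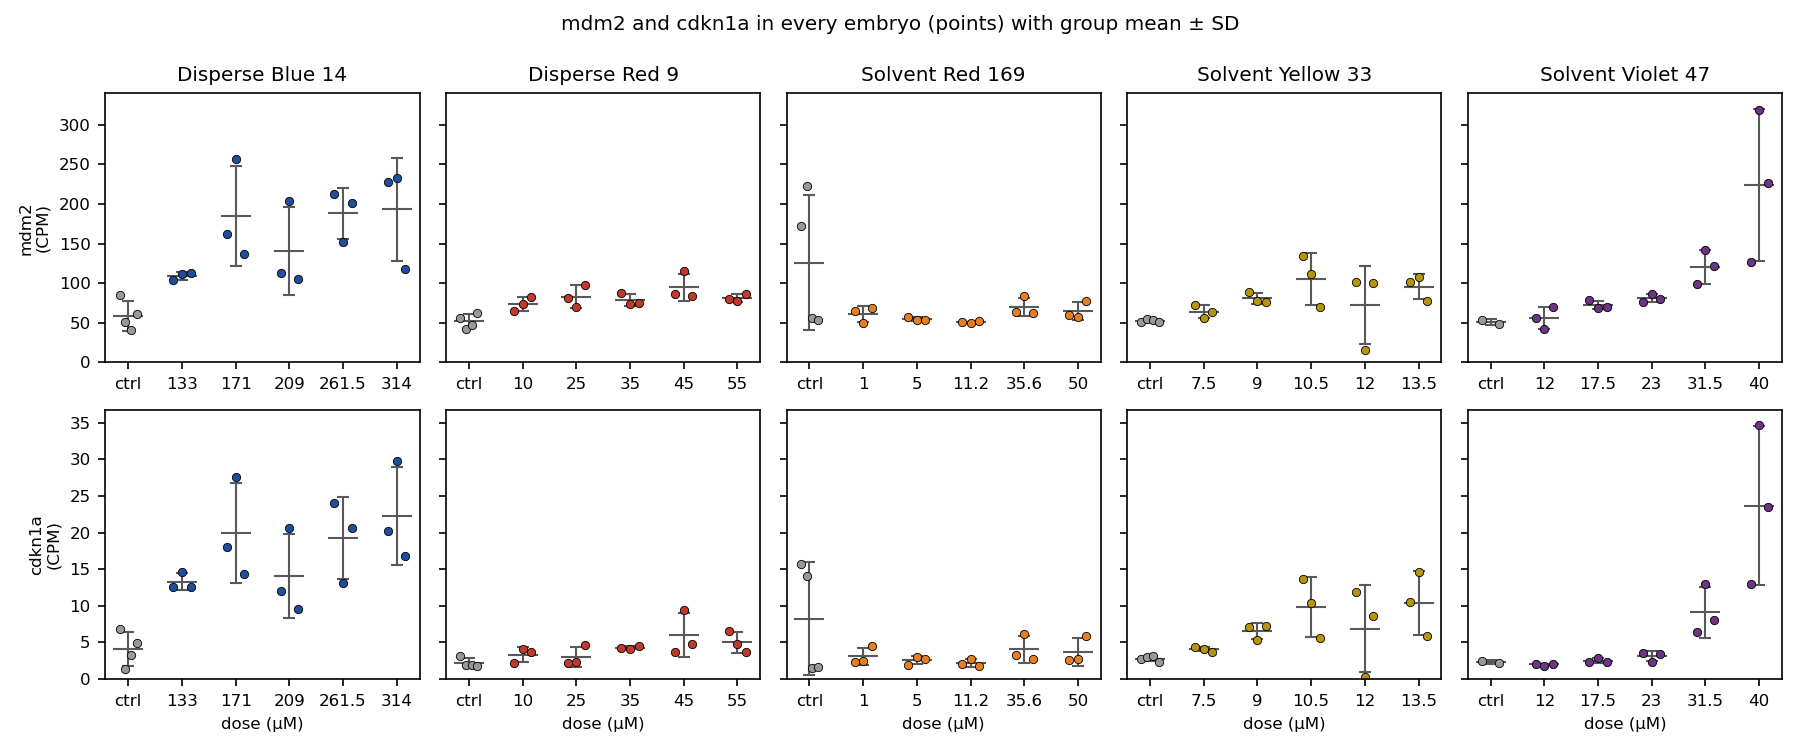
Level of mdm2 (upper panels) and cdkn1a (lower panels) in CPM against nominal dose in µM for the 5 dyes, with a point per embryo and a cross bar for the group mean ± SD (n = 3 per dose, 4 per control, 2 for the SV47 control). The mdm2 points of exposed DB14 embryos lie at 104 CPM or above, those of SV47 climb from 31.5 to 40 µM, and 2 of the 4 SR169 controls, at 172 and 223 CPM, lie far above the other 16 controls, which span 40.6 to 84.8 CPM.

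The arrest genes come next. cdkn1a encodes p21, which binds and inhibits the cyclin-dependent kinases that drive cells into S phase. In DB14 it was at 1.42, 3.24, 4.96 and 6.86 CPM in the controls, at 12.6, 12.6 and 14.6 CPM at 133 µM, and at 16.8, 20.2 and 29.8 CPM at 314 µM. The groups between them held 14.4, 17.97 and 27.6 CPM at 171 µM, 9.61, 12.0 and 20.6 CPM at 209 µM, and 13.1, 20.7 and 24.1 CPM at 261.5 µM. No exposed embryo overlapped a control. On the log2 scale the difference was called at 171 µM (2.29 ± 0.39, adjusted p = 0.011), 261.5 µM (2.27 ± 0.39, adjusted p = 0.00978) and 314 µM (2.48 ± 0.40, adjusted p = 0.00515), and not at 133 µM (1.71 ± 0.39, adjusted p = 0.114) or 209 µM (1.81 ± 0.39, adjusted p = 0.0844). The call at 314 µM was kept in every fit without an embryo of the compared groups, that at 171 µM was lost without 171 µM replicate 1 or 2 (1.99 and 2.36, adjusted p up to 0.105), and that at 261.5 µM without 261.5 µM replicate 1 or 4 (2.09 and 2.22, adjusted p up to 0.0658).

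In SV47 cdkn1a showed the widest range of the set. It was at 2.16 and 2.49 CPM in the controls and between 1.85 and 3.55 CPM in all 9 embryos of 12, 17.5 and 23 µM. At 31.5 µM it was 6.36, 8.02 and 12.99 CPM, and at 40 µM 12.9, 23.5 and 34.7 CPM. The levels of the lower doses and the controls thus lay together, and those of the upper doses lay apart from them. The log2 fold change was 1.94 ± 0.39 (SE, adjusted p = 0.0119) at 31.5 µM and 3.32 ± 0.41 (adjusted p = 0.000399) at 40 µM, a 9.99-fold difference. The call at 40 µM was kept in every fit that left out an embryo of the compared groups, and that at 31.5 µM was lost without either control (1.85 and 2.05, adjusted p 0.0937 to 0.176).

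For DR9, cdkn1a was at 1.81 to 3.16 CPM in the controls, 3.76, 4.75 and 9.42 CPM at 45 µM and 3.69, 4.76 and 6.59 CPM at 55 µM. The embryos of 35, 45 and 55 µM all lay above the controls, but none of these differences, 0.96, 1.45 and 1.21 on the log2 scale with adjusted p of 0.448, 0.0534 and 0.121, was called.

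ccng1 encodes cyclin G1, a p53 target that feeds back on Mdm2 and on growth arrest. In DB14 it was at 1120, 1316, 1362 and 2287 CPM in the controls, and at 2397, 3034 and 3860 CPM at 171 µM and 2358, 3133 and 3265 CPM at 314 µM. The highest control lay just below the lowest embryo of either group, and none overlapped. Against control the log2 difference was 1.03 ± 0.23 (SE, adjusted p = 0.0401) at 171 µM and 0.98 ± 0.23 (adjusted p = 0.0191) at 314 µM. The former was lost in 5 of 7 fits without an embryo, namely 171 µM replicate 1 or 2 or control replicate 2, 3 or 4 (0.85 to 1.05, adjusted p 0.0718 to 0.288), and the latter without 314 µM replicate 3 (0.89, adjusted p = 0.118). At 133, 209 and 261.5 µM the values of 0.67, 0.74 and 0.88 were not called.

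In SV47 ccng1 had the smallest SE of the set and its 40 µM difference the lowest adjusted p. Its controls had 943 and 1098 CPM, the embryos of 31.5 µM 2471, 3085 and 3264 CPM, and those of 40 µM 3544, 4396 and 6022 CPM. The 3 sets of embryos did not overlap. Relative to the controls the log2 fold change was 1.499 ± 0.22 (adjusted p = 0.00354) at 31.5 µM, which was lost only without control replicate 4 (1.39, adjusted p = 0.0888), and 2.16 ± 0.23 (adjusted p = 0.000204) at 40 µM.

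The GADD45A genes encode stress proteins that bind PCNA, p21 and Cdk1 in mammals. The first GADD45A gene was called higher at 4 doses and the second at 0 of 25. In DB14 the first was at 7.35 to 10.7 CPM in the controls, 12.3 to 15.1 CPM at 133 µM, 16.4, 25.7 and 27.7 CPM at 171 µM, 14.6 to 27.2 CPM at 209 µM, 19.2, 24.9 and 25.2 CPM at 261.5 µM, and 15.2, 24.8 and 30.2 CPM at 314 µM. All 15 exposed embryos lay above the 4 controls. On the log2 scale the difference was 1.45 ± 0.25 (adjusted p = 0.011) at 171 µM, 1.47 ± 0.25 (adjusted p = 0.00927) at 261.5 µM and 1.49 ± 0.25 (adjusted p = 0.00565) at 314 µM, and at 133 and 209 µM it was 0.71 and 1.20 (adjusted p = 0.318 and 0.0687). The call at 171 µM was lost without 171 µM replicate 1 or 2 or control replicate 4 (1.31 to 1.45, adjusted p 0.0512 to 0.105), and that at 261.5 µM without 261.5 µM replicate 4 (1.40, adjusted p = 0.0658).

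The second GADD45A gene was at 12.6, 14.1, 15.4 and 23.6 CPM in the DB14 controls and at 9.82 to 21.3 CPM in all 15 exposed embryos of that dye, which lay within or below the span of the controls. Its log2 fold changes against control were between -0.21 and 0.21 (adjusted p 0.525 to 0.995). In SV47, by contrast with its controls at 8.89 and 9.63 CPM, it was at 14.6, 15.8 and 16.8 CPM at 31.5 µM and 11.9, 15.2 and 16.6 CPM at 40 µM, differing from control by 0.73 ± 0.26 on the log2 scale at the lower dose (adjusted p = 0.0985) and by 0.62 ± 0.25 at the higher (adjusted p = 0.112). The first GADD45A gene in the same 40 µM embryos was at 13.7, 18.6 and 33.0 CPM against 7.23 and 7.63 CPM, at 1.53 ± 0.35 (adjusted p = 0.00939). That call was lost without either control (1.48 and 1.56, adjusted p 0.0869 to 0.0916).

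The members that act in cell death were pmaip1 and phlda3. pmaip1 encodes Noxa, a BH3-only protein that disables survival members of the Bcl-2 family. In DB14 it was at 5.60, 5.68, 6.20 and 8.78 CPM in the controls, 12.1, 14.99 and 15.2 CPM at 261.5 µM and 12.1, 12.98 and 13.3 CPM at 314 µM, with no overlap. The log2 fold change was 1.14 ± 0.21 (SE, adjusted p = 0.0128) and 1.01 ± 0.21 (adjusted p = 0.0134), and 0.86 ± 0.21 at 171 µM (adjusted p = 0.0662) was not called. The former was lost without 261.5 µM replicate 1 or 4 (1.08 and 1.099, adjusted p 0.0712 to 0.082) and the latter without 314 µM replicate 3 (0.97, adjusted p = 0.0796). In SV47 pmaip1 was at 4.28 and 5.69 CPM in the controls and 7.93, 10.5 and 19.6 CPM at 40 µM, which was 1.32 ± 0.41 higher on the log2 scale (adjusted p = 0.042), a call lost in 4 of 5 fits (without 40 µM replicate 3 or 4, or control replicate 3 or 4), at 0.85 to 1.54 with an adjusted p of 0.0634 to 0.271.

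phlda3 encodes a small pleckstrin homology protein that competes with Akt for membrane lipids and so restrains survival signalling in mammalian cells. In DB14 it was at 9.53, 19.1, 24.4 and 24.5 CPM in the controls. It was 36.4, 49.8 and 69.6 CPM at 171 µM, 45.9, 58.7 and 60.7 CPM at 261.5 µM, and 33.4, 51.3 and 67.7 CPM at 314 µM. All exposed embryos were higher than the controls, also at 133 µM (33.2 to 34.5 CPM) and 209 µM (30.1 to 59.4 CPM). Against control the log2 difference was called at 171 µM (1.43 ± 0.30, adjusted p = 0.0354), 261.5 µM (1.54 ± 0.30, adjusted p = 0.0199) and 314 µM (1.43 ± 0.30, adjusted p = 0.0146). These were lost in 5, 3 and 1 of 7 fits without an embryo: without 171 µM replicate 1 or 2 or control replicate 2, 3 or 4 (1.17 to 1.57, adjusted p 0.0512 to 0.267), without 261.5 µM replicate 1 or 4 or control replicate 3 (1.47 to 1.54, adjusted p 0.0575 to 0.11), and without 314 µM replicate 3 (1.41, adjusted p = 0.0761). In SV47 phlda3 was at 16.1 and 16.7 CPM in the controls, 22.5, 27.3 and 36.1 CPM at 31.5 µM and 35.4, 52.2 and 82.1 CPM at 40 µM. Only the 40 µM difference was called, at 1.76 ± 0.29 (adjusted p = 0.0014), and it was kept in every fit without an embryo of the compared groups.

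**Figure D3:**
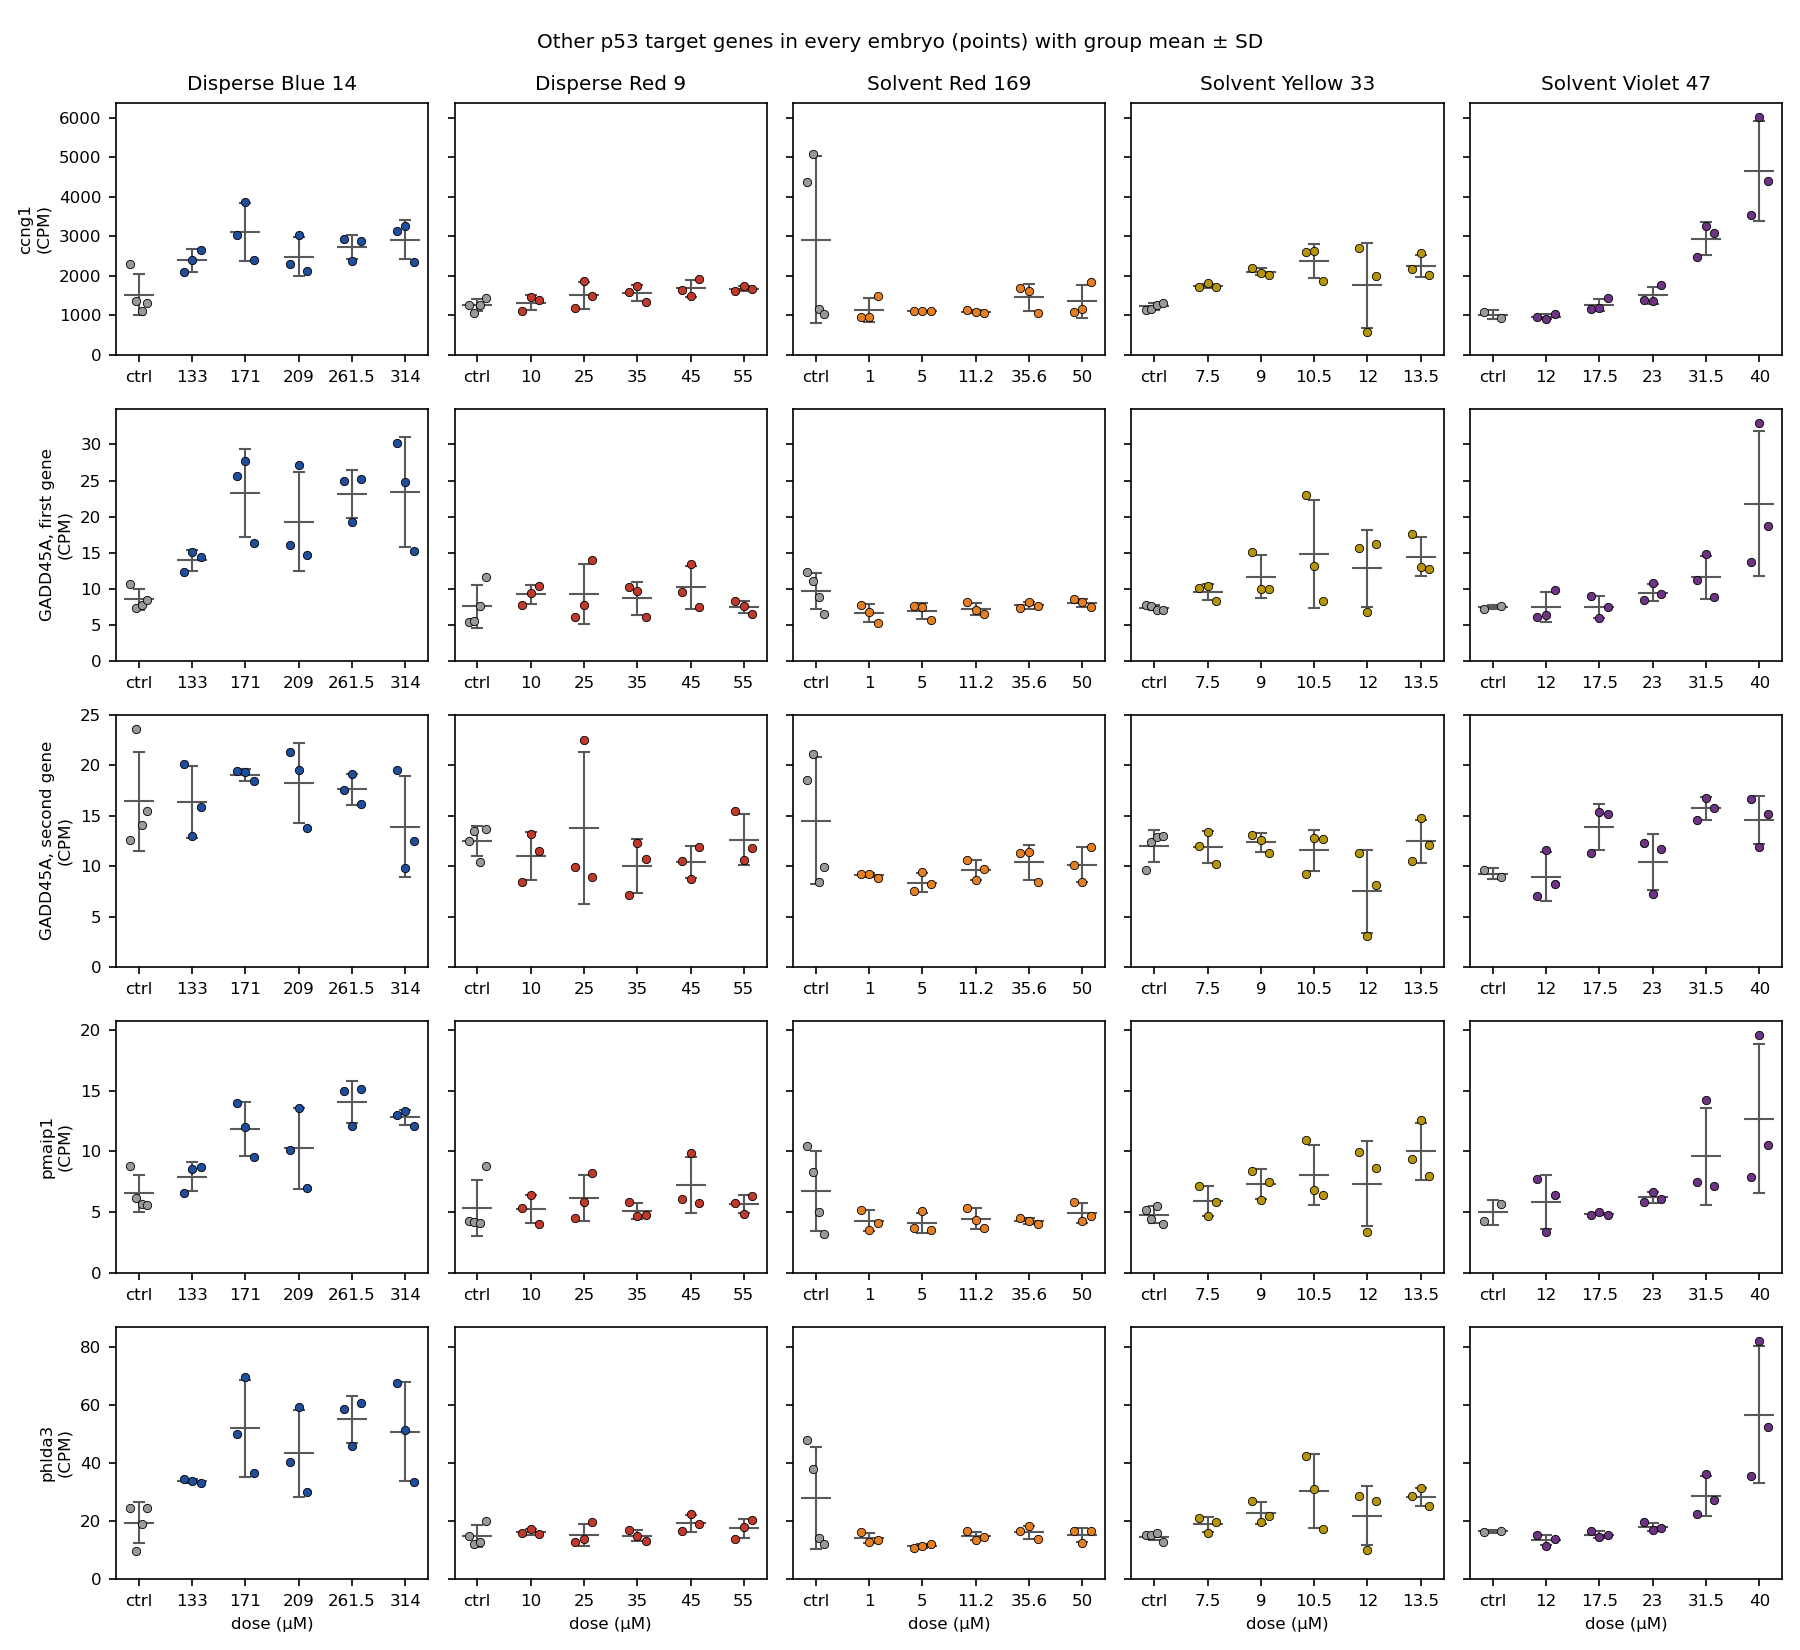
Level in CPM of ccng1, the first and second GADD45A genes, pmaip1 and phlda3 (from top to bottom) against nominal dose in µM for the 5 dyes, with a point per embryo and a cross bar for the group mean ± SD. The second GADD45A gene of DB14 stays between 9.82 and 21.3 CPM in exposed embryos while the first reaches 30.2 CPM, and ccng1 and phlda3 of SV47 are highest at 40 µM, at up to 6022 and 82.1 CPM.

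Listed as a description only, the highest group means of mdm2 over the 30 groups were those of 40 µM SV47 (224 ± 96.2 CPM, SD, n = 3), 314 µM DB14 (193 ± 64.8 CPM), 261.5 µM DB14 (188 ± 31.9 CPM) and 171 µM DB14 (185 ± 62.9 CPM). The lowest was 11.2 µM SR169 (50.9 ± 0.796 CPM). For cdkn1a the order began with 40 µM SV47 (23.7 ± 10.9 CPM), 314 µM DB14 (22.3 ± 6.70 CPM) and 171 µM DB14 (19.96 ± 6.81 CPM) and ended with 12 µM SV47 (1.995 ± 0.129 CPM). For each of the 7 genes all 29 pairs of neighbours in this order overlapped in the range of their embryos, so the order alone separates no neighbouring groups.

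Dose itself was tested as a slope over the 5 exposed groups of a dye, per doubling of dose and without the controls. For SV47 all 7 members rose with dose, beside 11.3% of all genes with a called rise. The slopes ran from 0.37 for the second GADD45A gene (SE 0.12, adjusted p = 0.0298) through 0.71 for pmaip1 (adjusted p = 0.0121), 0.83 for the first GADD45A gene (adjusted p = 0.00179), 1.07 for mdm2 (adjusted p = 0.000168), 1.13 for phlda3 (adjusted p = 9.05e-05) and 1.30 for ccng1 (adjusted p = 1.97e-05) to 2.03 ± 0.19 log2 units for cdkn1a (adjusted p = 2.31e-05). For the other 4 dyes no member had a called slope, beside 0% of all genes called higher, and 3 members of DB14, 2 of SY33, 1 of DR9 and 0 of SR169 had an unadjusted p below 0.05. DESeq2 called none of these either. Over all genes, slopes with an unadjusted p below 0.05 numbered 653 of 17887 in DB14 and 452 of 17577 in SY33. They numbered 772 of 17869 in DR9 and 946 of 17840 in SR169. In DB14 the median slope was 0.50 (adjusted p = 0.956 for each member), and between 261.5 and 314 µM the members differed by -0.34 to 0.21 on the log2 scale with 0 of 7 called, beside 0% of all genes, and 0 at an unadjusted p below 0.05.

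SR169 was the only dye for which the members' fold changes were negative at every dose, and 2 of its 4 controls were high in several members. mdm2 was at 52.996, 55.9, 172 and 223 CPM in the 4 controls and at 50.3 to 83.3 CPM in all 15 exposed embryos. cdkn1a was at 1.496, 1.70, 14.1 and 15.7 CPM in the controls and 1.80 to 6.17 CPM in the exposed embryos. ccng1 was at 1048, 1152, 4382 and 5073 CPM in the controls. The 2 high values of each gene belonged to the same embryos, control replicates 1 and 2, and the 16 controls outside that pair, which include the other 2, spanned 40.6 to 84.8 CPM for mdm2, 1.42 to 6.86 CPM for cdkn1a and 943 to 2287 CPM for ccng1. phlda3 was at 47.8 and 37.9 CPM in those replicates 1 and 2, against 9.53 to 24.5 CPM in the 16. The first GADD45A gene (12.3 and 11.1 CPM against 5.45 to 11.7 CPM), the second (18.5 and 21.1 CPM against 8.41 to 23.6 CPM) and pmaip1 (10.5 and 8.34 CPM against 3.22 to 8.78 CPM) overlapped that range in at least 1 embryo.

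With all embryos, 26 of the 35 tests of SR169 had an unadjusted p below 0.05 and a negative sign. Of all 17840 genes tested, 5981, 5900, 4304, 4209 and 5434 had such a p in order of dose, in either direction. Only phlda3 at 5 µM was called, with a log2 value of -1.32 ± 0.35 (SE, adjusted p = 0.036), beside 1.66% of the 17840 genes tested called lower. At the doses 1, 11.2, 35.6 and 50 µM no member was called lower, beside 0.93%, 0%, 0% and 0.734% of all genes. The median log2 fold change was -1.001, -1.22, -0.91, -0.78 and -0.90 in order of dose. Without control replicates 1 and 2, an alternative chosen after seeing the data, it was 0.03, -0.03, 0.06, 0.29 and 0.23, and 0 of 7 members were called at any dose, as were 0%, 0%, 0%, 0.00559% and 0.00559% of all genes. cdkn1a then stood at 0.90, 0.65, 0.44, 1.34 and 1.18 on the log2 scale (adjusted p 0.281 or more). The members were high in those 2 controls when they were singled out. A rise of the fold changes without them was therefore fixed in advance and is no test. Leaving out control replicate 3 or 4 instead gave 24 and 17 calls, and leaving out replicate 1 or 2 gave 0. The share of all genes called in these fits is not given here, so the counts cannot be read as particular to the members. The phlda3 call was lost without control replicate 1 or 2 or any embryo of 5 µM (-1.36 to -0.94, adjusted p 0.0835 to 0.168). The proliferation genes and the p53 targets were both high in those 2 controls, and the part of the cell cycle or of any stress before sampling in these values was not tested.

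Tested among the 5 control groups, 0 of 7 members differed at an adjusted p below 0.05, beside 2.09% of the 18170 genes tested. mdm2 (adjusted p = 0.0851), ccng1 (0.113) and cdkn1a (0.152) had an unadjusted p below 0.05, DESeq2 called 3 members, and a fit of all 93 embryos called 4. Without SR169 control replicate 3 the count was 3, without its replicate 4 it was 1, and without DB14 control replicate 2 it was 1. Shares of all genes called are not given for these alternatives.

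**Figure D4:**
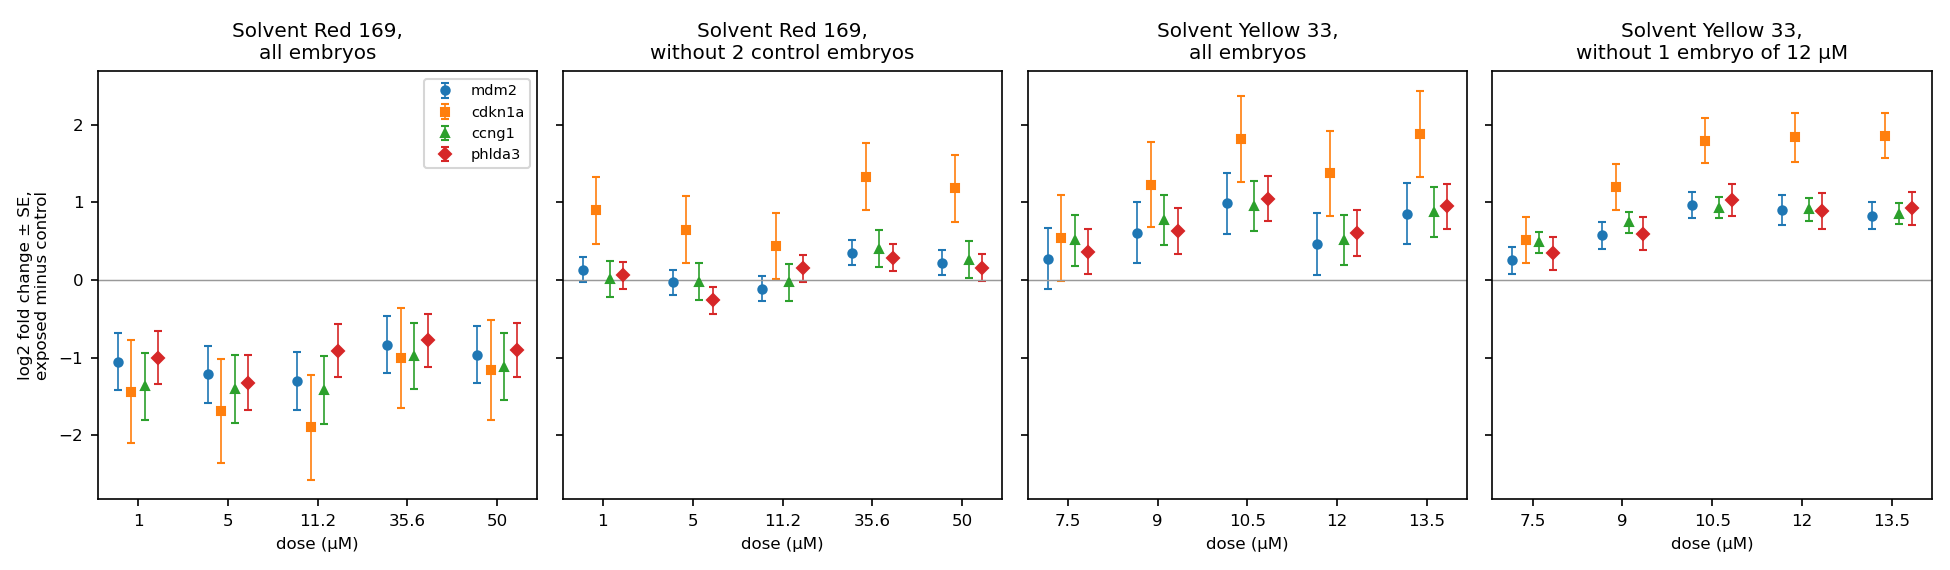
Log2 fold change ± SE against control (vertical) of mdm2, cdkn1a, ccng1 and phlda3 at each dose in µM, for SR169 with all embryos and without control replicates 1 and 2, and for SY33 with all embryos and without replicate 3 of 12 µM. The SR169 values move from below 0 to near or above it, and the error bars of SY33 shorten while its values at doses other than 12 µM stay in place.

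For SY33 every member but the second GADD45A gene lay above the controls from 9 µM upward in all embryos but the replicate that stood apart. mdm2 was at 51.6, 51.7, 53.2 and 55.3 CPM in the controls. It was 55.6, 64.0 and 72.8 CPM at 7.5 µM, 75.7, 78.1 and 88.6 CPM at 9 µM, 69.4, 111 and 135 CPM at 10.5 µM, 15.5, 100.4 and 102 CPM at 12 µM, and 77.8, 101 and 108 CPM at 13.5 µM. cdkn1a was at 2.40 to 3.11 CPM in the controls, 3.74 to 4.35 CPM at 7.5 µM, 5.31, 7.13 and 7.30 CPM at 9 µM, 5.55, 10.4 and 13.6 CPM at 10.5 µM, 0.259, 8.56 and 11.8 CPM at 12 µM, and 5.93, 10.6 and 14.6 CPM at 13.5 µM. The lowest value of each gene at 12 µM is replicate 3, which held 60 counts of mdm2 and 1 count of cdkn1a and had the fewest counts of all 93 embryos for each of the 7 members. These counts are not scaled, and its library had the lowest total. In CPM its first GADD45A gene (6.74), pmaip1 (3.37) and phlda3 (10.1) lay above the lowest control of any dye (5.45, 3.22 and 9.53). The ccng1 of this replicate was at 581 CPM, against 1987 and 2710 CPM in the other embryos of 12 µM.

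With all embryos no member was called for SY33, beside 0.0853%, 0.239%, 0.341%, 0.381% and 0.882% of the 17577 genes tested called higher in order of dose. All 3 exposed embryos lay above all 4 controls for 5, 6, 6, 0 and 6 of the 7 genes, beside 13.1%, 11%, 8.25%, 3.62% and 17.9% of all genes. The median log2 fold change was 0.37, 0.63, 0.99, 0.60 and 0.95. At 13.5 µM cdkn1a stood at 1.89 ± 0.55 (SE, adjusted p = 0.0967), pmaip1 at 1.05 ± 0.30 (adjusted p = 0.0856) and mdm2 at 0.86 ± 0.39 (adjusted p = 0.384).

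Replicate 3 of 12 µM was set aside after the data were seen and had the lowest value of each member in its group. A rise of the 12 µM fold changes without it was therefore fixed in advance and is no test. All doses share 1 estimate of spread per gene, so the SE and calls at the other doses also depend on setting this embryo aside. Without this embryo the SE of mdm2 fell to 0.17 at 13.5 µM and 19 of 35 tests were called, all higher: 0, 2, 5, 6 and 6 of the 7 members in order of dose. These counts stand beside 120, 243, 325, 439 and 513 of 17740 genes called higher. In either direction 1.66%, 4.18%, 5.51%, 6.38% and 8.92% of those genes were called. In that fit cdkn1a was called from 9 µM upward, at 1.20 ± 0.29 (adjusted p = 0.0218), 1.80 ± 0.29 (adjusted p = 0.00118), 1.84 ± 0.32 (adjusted p = 0.00219) and 1.86 ± 0.29 (adjusted p = 0.000508). ccng1 was called at the same doses (0.74 to 0.93). mdm2, phlda3 and the first GADD45A gene were called at 10.5, 12 and 13.5 µM (mdm2 0.97, 0.91 and 0.83), and pmaip1 at 12 and 13.5 µM (0.93 and 1.03). The second GADD45A gene was not called at any dose, at -0.33 to 0.03. No member had a called slope with dose in that fit (cdkn1a 1.63 ± 0.34 per doubling, adjusted p = 0.187), beside 0.0225% of all genes. DESeq2 on all embryos called 7 of 35, and fits of only the groups compared called 14. Shares of all genes called are not given for these 2 alternatives, so the counts cannot be read as particular to the members.

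Embryos of the same treatment also differed from each other, and most members did so together. Over the 93 embryos, the deviation of log2 CPM from the embryo's own group mean was compared between mdm2 and each other member (6 pairs, two-sided permutation of embryos within groups, adjusted over the 6). Pearson's r and Spearman's rho were 0.887 and 0.765 for cdkn1a, 0.870 and 0.700 for ccng1, 0.852 and 0.811 for phlda3, 0.737 and 0.664 for pmaip1, and 0.709 and 0.687 for the first GADD45A gene. Each of these had p = 1e-05, the smallest that the permutations can give (adjusted p = 1.2e-05). The second GADD45A gene had r = 0.374 (permutation p = 0.111) and rho = 0.0504 (permutation p = 0.713).

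Without the embryos farthest from the median of mdm2, replicate 3 of 12 µM SY33 and replicate 2 of the SR169 control, r was 0.836 for cdkn1a, 0.819 for ccng1, 0.844 for phlda3, 0.708 for pmaip1, 0.703 for the first GADD45A gene and 0.167 for the second. Within each dye (17 or 19 embryos) r with mdm2 ran from 0.593 to 0.980 for cdkn1a and from 0.756 to 0.920 for phlda3. For ccng1 it was 0.912 in DB14 and 0.0801 in DR9. For the second GADD45A gene it was 0.895 in SR169 and -0.51 in SV47. The highest r of cdkn1a was that of SY33, and those of phlda3 and the second GADD45A gene were of SR169. Both dyes include embryos that stood apart, and no r within a dye was computed without them. The r within a dye are therefore a description. All values of an embryo come from 1 library, so its depth and composition are shared by both axes.

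**Figure D5:**
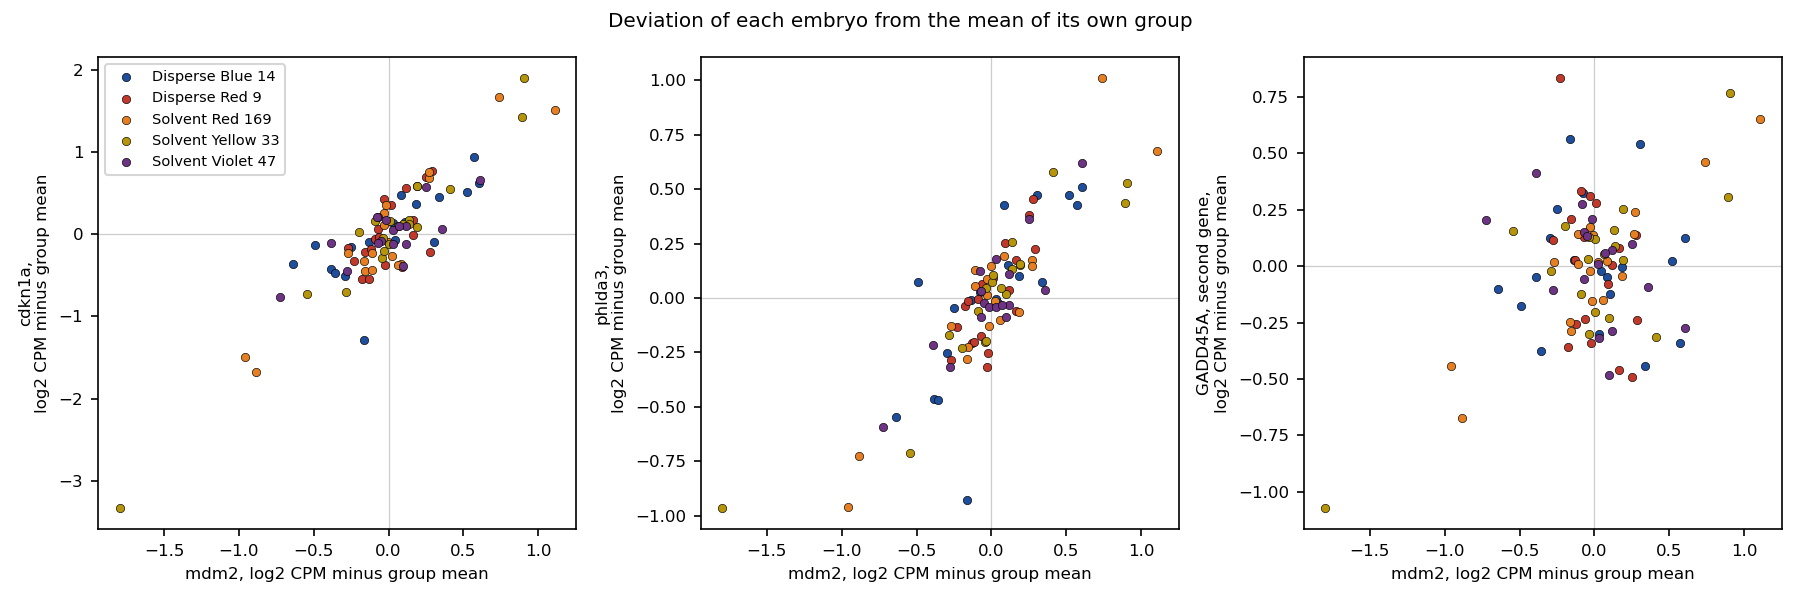
Deviation of log2 CPM from the group mean for each of the 93 embryos, mdm2 on the horizontal axis against cdkn1a, phlda3 and the second GADD45A gene on the vertical axes, coloured by dye. The points form a rising band for cdkn1a (r = 0.887) and phlda3 (r = 0.852) and none for the second GADD45A gene (r = 0.374), and the point at the lower left is replicate 3 of 12 µM SY33.

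Across all embryos, with each value taken relative to the control mean of its dye, the genes most like mdm2 included cdkn1a (r = 0.943), mat2al (0.937), isg20 (0.934), NPR3 (0.931), PARP3 (0.928) and ankrd50l (0.924). This ranking covers 15148 genes and 93 embryos and is a description, since treatment and library are shared by all genes of an embryo. ccng1 ranked 8, phlda3 9, the first GADD45A gene 26, pmaip1 32 and the second 1122. Genes most like cdkn1a, after mdm2, were isg20 (0.939), PARP3 (0.925), ghrh (0.920), arpp21 (0.919), si:dkey-40h20.1 (0.916) and ms4a17a.4 (0.911). Without the 3 embryos that stood apart cdkn1a ranked 4 for mdm2.

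Of 61 other genes of the p53 pathway, 9 were called higher and 2 lower at 314 µM DB14, beside 7.66% and 8% of all genes. These included thrombospondin THBS1 (log2 fold change 1.32), the initiator caspase casp8 (1.17), the stress protein sesn3 (1.28) and the antiproliferative BTG1 (0.61). At 171 and 261.5 µM 2 and 2 were called, all higher, beside 0.52% and 0.777% of all genes. At 40 µM SV47, 17 were called higher and 1 lower, beside 6.05% and 8.91% of all genes, among them the ribosomal protein gene rps27l (3.48) and casp8 (1.93). At 31.5 µM of that dye 9 were called higher, beside 2.22%. At 13.5 µM SY33, 4 were called higher, beside 0.882% of all genes. Among them were 1 of the 2 GADD45B identifiers (1.31), rps27l (1.67) and sesn2 (1.41). Without replicate 3 of 12 µM these stood at 1.29, 1.65 and 1.39, and 7 of the 61 were called higher beside 513 of 17740 genes. None was called for DR9. At 5 µM SR169, 4 were called higher and 4 lower, beside 4.6% and 1.66% of all genes, with the cell cycle inhibitor CDKN1B (2 identifiers, 1.15 and 1.14) and EI24 (0.96) among those higher. Without the 2 controls that stood apart none of the 61 was called, as was none of 17887 genes, and these values were 0.78, 0.77 and 0.81 (adjusted p 0.0626 to 0.149). Over all 61 genes the median log2 fold change was 0.07 at 314 µM DB14 and 0.26 at 40 µM SV47, against 1.43 and 1.76 for the 7 members. Both lists were chosen with earlier results of these data known, so this contrast is a description and not a test.

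Genes that act in the cell cycle downstream of p21 were read next. Of 13 cyclin and kinase genes tested, 1 was called higher at 314 µM DB14, CCND1 (0.60), beside 7.66% of all genes. At 31.5 µM SV47 it was 1, CCNB1 (0.73), beside 2.22%, and at 40 µM SV47 also 1, beside 6.05%. A rise with dose was called for 6 of the 13 in SV47, beside 11.3% of all genes. Of 15 proliferation genes, 0 were called higher and 5 lower at 314 µM DB14, beside 7.66% and 8% of all genes, including the thymidylate synthase gene TYMS (-1.004), the condensin gene SMC4 (-0.95), the replicative helicase gene MCM5 (-0.95) and the mitotic kinase gene aurka (-1.19). The median of the 15 there was -0.80. At 31.5 µM SV47 3 were called higher and 0 lower, beside 2.22% and 4.04% of all genes, namely MCM4 (0.90), CDC20 (0.68) and plk1 (0.78), with a median of 0.87. At 40 µM SV47 3 of the 15 were called higher and 0 lower, beside 6.05% and 8.91% of all genes, with a median of 0.65. In DR9 1 of the 15 was called higher at each of 35, 45 and 55 µM. The shares of all genes there were 0.0224%, 0.632% and 0.19%. At 35 µM the gene called was mki67 (0.80). MCM4 was called higher at 12 µM SY33 (0.63) with all embryos and not without replicate 3 (0.51, below the fold limit).

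Tissue markers moved beside the members at some of these doses. Of 16 tested, 2 were called higher and 4 lower at 314 µM DB14, beside 7.66% and 8% of all genes, among them the cardiac peptide gene nppa (1.57) and the notochord gene tbxta (1.08) higher and the lens crystallin gene CRYBB1 (-2.23) and the muscle troponin gene TNNT3 (-1.22) lower. The neuronal gene SNAP25 was lower at 45 µM DR9 (-1.27, beside 0.778% of all genes called lower) and 31.5 µM SV47 (-1.05, beside 4.04%). The lens gene MIP has 2 identifiers. ENSDARG00000013963 was lower at 13.5 µM SY33, at -0.59 with all embryos (beside 1.62%) and -0.61 without replicate 3 of 12 µM. The other identifier was not called there with all embryos. nppa was called higher at 5 µM SR169 (1.24), a call lost without the 2 controls that stood apart (0.97, adjusted p = 0.0939). The part of a shift in tissue composition or stage in the members' values was not tested.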

How the data were processed

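Libraries were made from 200 ng of total RNA per embryo after poly-A selection. Per the labels and the study's methods, the authors trimmed reads with Trim Galore 0.6.5, quantified them with Salmon 1.1.0 (GRCz11), imported them to genes and tested them with edgeR 3.28.1. The deposited table holds estimated counts per gene, of which 62.2% of values are whole; they were rounded here. Estimated counts share reads between similar transcripts, so paralogs such as the GADD45A genes are less certain. The tables of log2 CPM were not used, since they carry no gene identifiers. Genes were filtered with filterByExpr, scaled by TMM and fitted per dye with edgeR 4.0.16 (quasi-likelihood F test, limma 3.58.1, R 4.3.3), all groups of a dye in 1 fit, with fold change over 1.5 and adjusted p under 0.05. Levels in CPM come from a single TMM scaling of all 93 embryos and fold changes from the fit of each dye, and levels are not corrected for gene length. The scripts were tested on simulated data. Python 3.11.15 and scipy 1.17.1 gave the permutation tests, with 100000 resamples. The member and other gene lists were chosen with earlier results of these data known.

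The text names the members, up to 4 called genes per list and dye with the lowest adjusted p at the dose with most calls, and the 6 genes most like mdm2 and cdkn1a; some genes that this rule names are not reported here. Names came from a table that gave a symbol to 19164 of the 19913 identifiers; genomic positions and sequences were not used here. Alternatives were size factors by median ratios, no filter, a newer quasi-likelihood form, only the groups compared, DESeq2 1.42.0, pooled controls, a replicate block and each embryo left out. The study's methods removed an embryo of the 12 µM SY33 group without naming it; all 3 deposited embryos entered the fit, and results without replicate 3 stand beside them.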

Additional observations from a re-analysis of the deposited data

Results flagged for a closer look

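In 28 combinations of a member and a control group of 4 embryos, 2 had an embryo far from the other 3, about as many as chance gives at 1 in 20. cdkn1a was at 3.16 CPM in DR9 control replicate 1, against 1.81 to 1.89 CPM in the other 3, a gap of 0.927 of the whole range. pmaip1 was at 8.78 CPM in DR9 control replicate 4, against 4.14 to 4.27 CPM, a gap of 0.960 of the range.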

How the results depend on the processing

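The number of member calls for a dye shifted with the setting. With only the groups compared in each fit it was 0 for DB14, 0 for SR169 and 14 for SY33. In those fits SV47 had 1, 1 and 4 of 7 called at 23, 31.5 and 40 µM. With DESeq2 the number was 6 for DR9, 11 for SR169, 7 for SY33 and 3 for the differences among control groups. A fit of all 93 embryos put the latter at 4. Shares of all genes called are not given for DESeq2, for most fits without an embryo, or for groups compared outside DB14. Nor are they given for the fit of all 93 embryos, the newer quasi-likelihood form, median-ratio factors or the replicate block. The member counts of all these settings therefore cannot be read as particular to the members. With the controls of all dyes pooled the number was 0 for DR9, 0 for SR169 and 5 for SY33. The latter included a lower call, the second GADD45A gene at 12 µM (-0.75). Of 18429 genes, 42 to 2202 were called for SY33 by dose. In that fit SV47 had 0 of 7 members called at 31.5 µM and 6 of 7 at 40 µM, beside 530 and 3406 genes. DB14 had 1, 5, 3, 5 and 5 of 7 in order of dose, beside 105 to 687 genes, and ccng1 was called at no DB14 dose. The newer quasi-likelihood form gave 2 for DR9 and 2 for SR169, and median-ratio factors gave 2 for DR9. Another fit, chosen after seeing the data, pooled the controls and left out the 3 embryos that stood apart. It called 29 for DB14, 4 for DR9, 0 for SR169 and 19 for SY33. Of 18519 genes tested at each dose, it called 319 to 1351 for DB14 and 1 to 1065 for DR9. The genes called were 1 to 50 for SR169 and 156 to 1571 for SY33. For SV47 this fit called 5 of 7 members at 31.5 µM and 6 of 7 at 40 µM, with the share of all genes not given here. Leaving out each embryo gave 9 to 24 for DB14, 0 to 3 for DR9, 0 to 24 for SR169, 0 to 19 for SY33, 4 to 10 for SV47 and 0 to 3 among controls. The slopes called for SV47 numbered 6 or 7. Of the 27 calls, 7 were kept in every fit without an embryo of the compared groups. The causes of these shifts were not tested.

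With pooled controls 26 of the 175 signs changed, with pooled controls and the 3 embryos left out 22 of 175, and without both high SR169 controls 23 of the 35 of that dye. Among the 102 values that differed by more than 1.5-fold, the settings gave 30 reversals. A value that reversed in several settings was counted in each, so fewer than 30 values reversed. The reversals were as follows. Without both high SR169 controls, mdm2 was at 0.13, 0.35 and 0.23 at 1, 35.6 and 50 µM, cdkn1a at 0.90, 0.65, 0.44, 1.34 and 1.18 in order of dose, ccng1 at 0.011, 0.40 and 0.26 and phlda3 at 0.062, 0.29 and 0.16 at 1, 35.6 and 50 µM, phlda3 at 0.15 at 11.2 µM, pmaip1 at 0.028, 0.11 and 0.059 at 1, 11.2 and 35.6 µM, and the second GADD45A gene at 0.059 at 11.2 µM. With pooled controls and the 3 embryos left out, mdm2 was at 0.19, 0.020, 0.41 and 0.26 at 1, 5, 35.6 and 50 µM, cdkn1a at 0.17, 0.60 and 0.43 at 1, 35.6 and 50 µM, ccng1 at 0.25 and 0.092 at 35.6 and 50 µM and phlda3 at 0.071 at 35.6 µM. With pooled controls cdkn1a of 10 µM DR9 was at -0.29.

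Same-numbered embryos did not deviate together on average (mean r -0.026 to 0.050 by dye), with single pairs from -0.66 to 0.64 in DR9. Whether they shared a plate or clutch was not tested. With the replicate number as a block the calls were 14 for DB14, 1 for DR9, 1 for SR169, 0 for SY33 and 8 for SV47, with 6 slopes for the latter.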
